A study of Mus musculus with 32 samples.

Results

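Potassium channel genes were followed across the striatum of 32 mice in 4 groups of 8. The set was chosen by symbol and by count. Of 99 genes whose symbol starts with Kcn, 5 antisense transcripts and Kcnj10 were set aside, and 39 did not have at least 10 counts in 8 or more libraries. The remaining 54 genes made up the set, out of 55415 features in the files, of which 10979 met the same count rule. Neither the symbol nor the pooled count rule uses a comparison between groups, and in no member did the libraries at the minimum all come from 1 group. In 37 members every library held 10 or more counts. Just inside the rule stood Kcnj12 and Kcnk12, with 11 such libraries each, and just outside stood Kcnj2, with 2.

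The 4 groups were wild-type (WT) littermates given artificial cerebrospinal fluid (aCSF), YAC128 mice given aCSF, YAC128 mice given the antisense oligonucleotide AON12.1 and YAC128 mice given a scrambled oligonucleotide. YAC128 mice carry a human huntingtin gene with an expanded polyglutamine tract on a yeast artificial chromosome, here on a B6 background, and keep their own mouse huntingtin. All groups, controls included, had a cannula placed in the lateral ventricle at about 6 months of age and received 3 injections, the later ones 2 and 4 weeks after surgery, each of 10 µL with 500 µg of oligonucleotide or with aCSF alone. Tissue was taken at 12 months, directly after an MRI scan. No WT group received an oligonucleotide, so an effect of oligonucleotide could be measured only in YAC128 mice. The labels give no sex. The labels give every library an animal number of its own, beginning with 18 or 19.

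Potassium channels let potassium leave the cell and so set the resting potential, end each action potential and limit how often a neuron fires. Voltage-gated channels open on depolarization, inward rectifiers pass current best near rest, two-pore channels leak at most voltages, and calcium- or sodium-activated channels respond to ions that enter during firing. Auxiliary subunits, such as the KChIP and Kv beta proteins, change the traffic and gating of the pore. In the striatum, strong inward rectifiers and A-type currents are known to hold projection neurons at negative potentials between bursts of cortical input.

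The libraries sampled the 3′ part of polyadenylated transcripts from whole tissue, and held 658934 to 1419313 gene counts each. Levels are given as CPM, counts scaled to a common library size with TMM factors, and they were compared between groups within a gene, not between genes. In such bulk tissue, fewer cells of a type and less RNA per cell cannot be told apart. Counts outside any annotated feature took 16.3% to 33.7% of a library, and the group means (± SD, n = 8) were 19.5% ± 4.40 for WT aCSF, 25.7% ± 4.92 for YAC128 aCSF, 23.8% ± 6.70 for AON12.1 and 22.1% ± 2.41 for scrambled libraries. The 1 feature without a mouse Ensembl identifier had 0 to 6 counts in WT libraries and 75 to 187 in YAC128 libraries, so no library went against its genotype label. All marker lists for striatal projection neurons were detected, and none of their markers stood at 0 across a group. The summed level of 10 cortical excitatory neuron markers had a WT aCSF median of 1544 CPM (range 1223 to 2898), a YAC128 aCSF median of 1413 (1195 to 3166), an AON12.1 median of 2085 (1529 to 3308) and a scrambled median of 2132 (1455 to 4455). For 7 choroid plexus and ependymal markers the sum ran from 169 to 432 CPM in 3 of the groups, and from 226 to 4025 in YAC128 aCSF, where 1 library stood apart.

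Few differences between groups in potassium channel genes passed the test. Their summed level had a WT aCSF median of 3882 CPM (range 3501 to 4183), a YAC128 aCSF median of 3636 (3178 to 4155), an AON12.1 median of 4028 (3673 to 4297) and a scrambled median of 4086 (3705 to 4705). The groups overlapped, and the YAC128 aCSF libraries had the lowest median. Markers of striatal projection neurons, the main cells of this tissue, also had their lower medians in YAC128 aCSF or scrambled libraries. The sum of 8 general projection neuron markers had medians of 3672 CPM for WT aCSF (range 2535 to 5558), 3236 for YAC128 aCSF (1783 to 4060), 3895 for AON12.1 (3072 to 5967) and 3354 for scrambled libraries (2055 to 4777). For 5 indirect-pathway markers the medians were 4537 CPM (2692 to 6112), 2797 (1630 to 3333), 3618 (2983 to 5124) and 3062 (1461 to 3667) in the same order, and for 6 direct-pathway markers 1249 (876 to 1417), 1013 (703 to 1161), 1335 (1055 to 1598) and 973 (610 to 1365). Between the genotypes 2 of 5 tested indirect-pathway markers fell, with log2 fold changes of -0.83 ± 0.18 for Adora2a and -0.76 ± 0.16 for Penk (adjusted p = 0.0495 each). In AON12.1 against aCSF all 8 general markers had values above 0, 7 of them at an unadjusted p under 0.05 and 0 called. The sum of 6 astrocyte markers was 2719 to 3356 CPM in WT aCSF and 2249 to 2688 in YAC128 aCSF libraries, without overlap. Singly, 0 of these 6 markers were called between the genotypes, and 2 had an unadjusted p under 0.05 in edgeR's test. Values lay below 0 for 5 and above 0 for 1, with a median log2 fold change of -0.09. The part of these cell types in the potassium channel values was not tested. Between YAC128 and WT mice given aCSF, 0 of 53 tested members passed an adjusted p of 0.05, where 0.0749% of all tested genes did. Unadjusted p-values under 0.05 were found for 2 members in that comparison, against 12.5% of all genes, and DESeq2 called 0. Log2 fold changes were below 0 for 36 members and above 0 for 17, where 49.3% of all tested genes lay above 0. The members' median was -0.13, beside a median of 0.00 over all tested genes.

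The 2 oligonucleotides were each set against aCSF in YAC128 mice, and both comparisons share the same 8 aCSF libraries. With AON12.1, 0 of 53 members were called (0.309% of all genes), 12 had an unadjusted p under 0.05 (11.6% of all genes) and DESeq2 called 1. Values lay above 0 for 34 members (50% of all genes) and below 0 for 19, with a median log2 fold change of 0.14. With the scrambled oligonucleotide, 1 of 53 was called (0.0843% of all genes), 10 had an unadjusted p under 0.05 (9.83% of all genes) and DESeq2 called 1, a different gene. Here 41 values lay above 0 (49.6% of all genes) and 12 below, with a median of 0.16. Over all tested genes both medians were 0.00. Between AON12.1 and scrambled, 0 of 53 members were called (0.140% of all genes), 4 had an unadjusted p under 0.05 (7.25% of all genes) and DESeq2 called 0, with 22 values above 0 (51.8% of all genes), 31 below and a median of -0.08. Against WT aCSF, 0 members were called with AON12.1 (0.562% of all genes), 0 with scrambled (0.169%) and 0 for the mean of the 3 YAC128 groups (0.234%). The counts at an unadjusted p under 0.05 were 9 (14.5% of all genes), 10 (9.8%) and 5 (13.5%), and DESeq2 called 1, 0 and 1. All these percentages of all genes are from edgeR's test, and none is given for the DESeq2 counts. A joint test of any difference among the 4 groups called 1 member (0.777% of all genes), with 12 at an unadjusted p under 0.05 (14.9% of all genes). No member had 2 groups whose libraries did not overlap in any of the 6 pairwise comparisons, where 0.0562% (scrambled against aCSF) to 0.243% (AON12.1 against WT) of all genes did. That share was 0.0843% between the genotypes and between AON12.1 and scrambled, 0.187% for AON12.1 against aCSF and 0.103% for scrambled against WT.

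**Figure D1:**
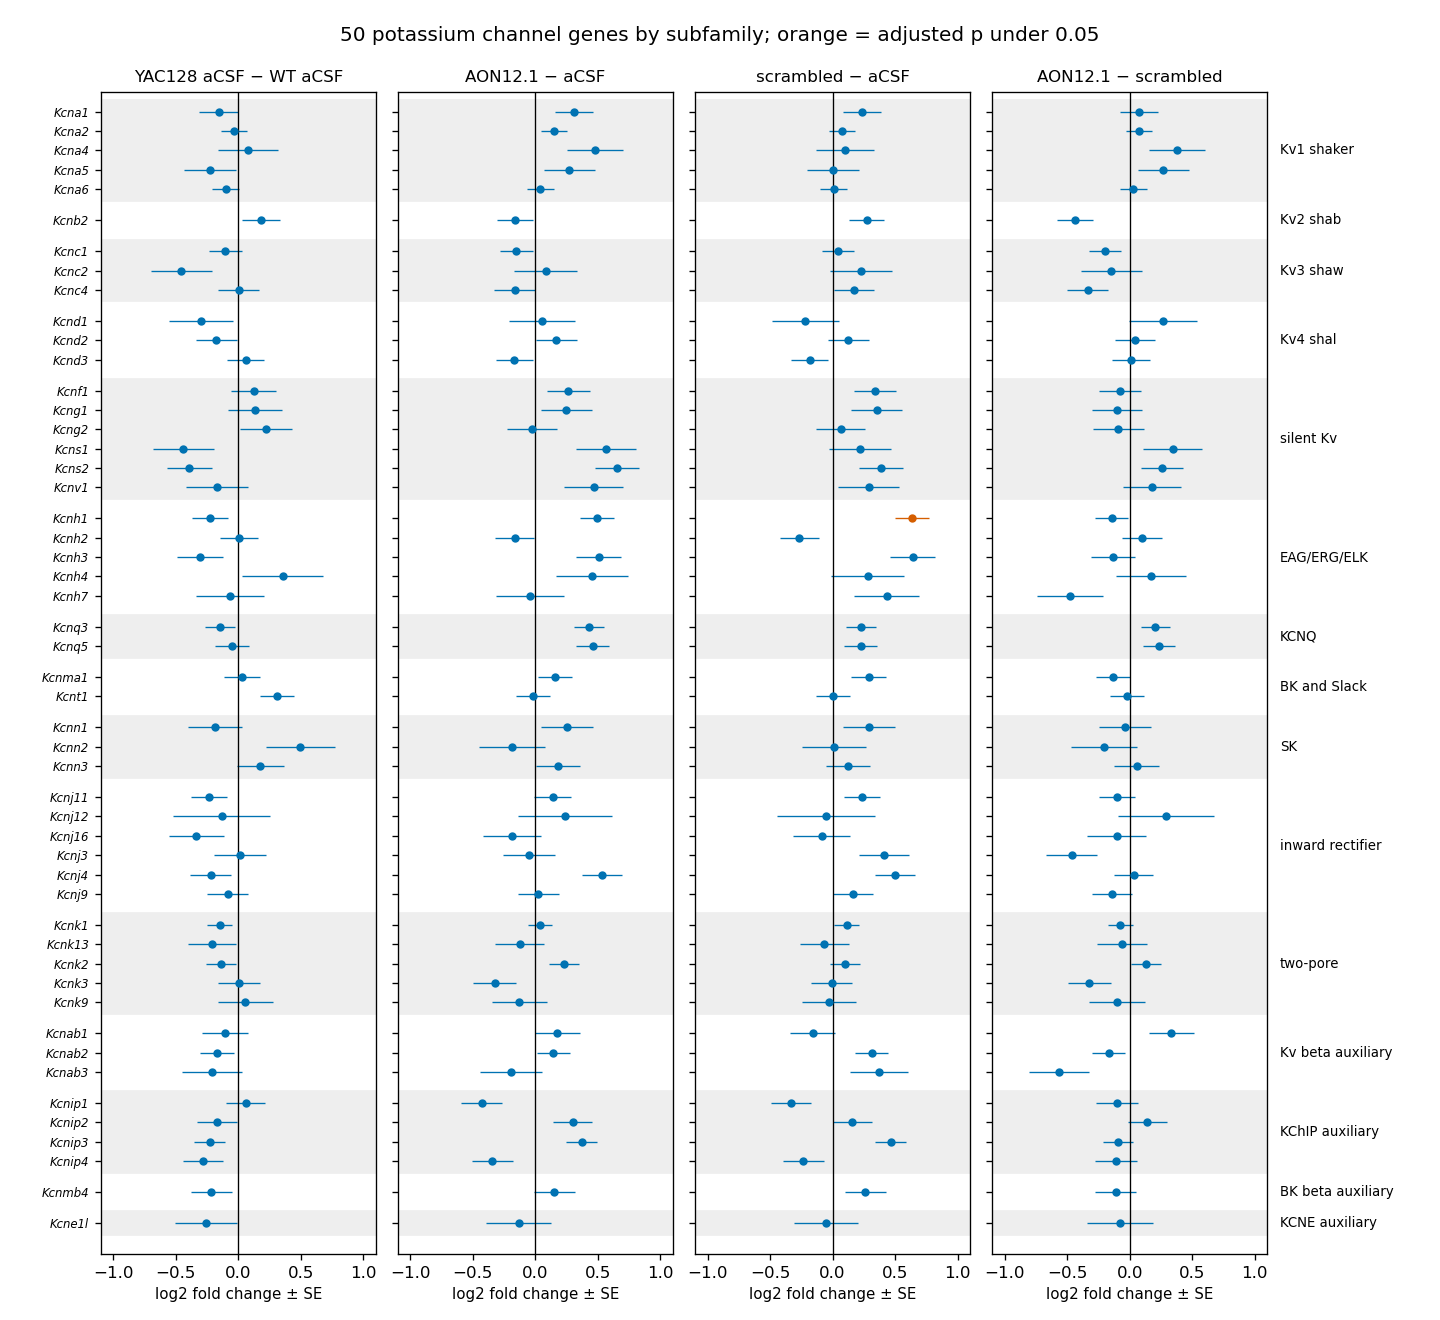
Log2 fold change ± SE (x axis) of 50 of the 53 tested potassium channel genes (y axis, grouped by subfamily) in 4 comparisons, with genes at an adjusted p under 0.05 in orange. Kcnh1 with the scrambled oligonucleotide, at 0.64, is the only orange point, and most points in the 2 comparisons with aCSF lie above 0.

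The member called was Kcnh1, which encodes the pore of an ether-à-go-go channel, a voltage-gated channel of the brain. Kcnh1 (ENSMUSG00000058248, chromosome 1) had WT aCSF levels of 25.9, 36.8 and 49.3 CPM, YAC128 aCSF levels of 26.04, 31.1 and 39.4, AON12.1 levels of 27.4, 50.6 and 58.2, and scrambled levels of 37.9, 51.3 and 62.3. These 3 levels of a group are its lowest, median and highest library, here and for the genes that follow. The YAC128 aCSF group had the lowest median and the smallest SD, and the scrambled libraries overlapped them only at their lower end. Kcnh1 rose with the scrambled oligonucleotide over aCSF, from 32.3 ± 4.305 to 50.2 ± 7.73 CPM (SD, n = 8). That is 1.55-fold, with a 95% interval of 1.28 to 1.88, or 0.64 ± 0.14 (SE) on the log2 scale, with an adjusted p of 0.0472 from edgeR's quasi-likelihood test. The joint test gave an adjusted p of 0.0315. This joint call was lost in 12 of 32 fits without 1 library, with adjusted p-values up to 0.0798, and in 5 of 12 other settings. With AON12.1 over aCSF the log2 fold change was 0.49 ± 0.14 (adjusted p = 0.112), between AON12.1 and scrambled -0.14 ± 0.13, and between the genotypes -0.23 ± 0.14; none of these was called.

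The Kcnh1 call was close to its threshold. Leaving out 1 library at a time kept the log2 fold change between 0.57 and 0.69, but the call was lost in 13 of 16 such fits, with adjusted p-values up to 0.180; it was kept only without YAC128 aCSF replicate 8 or scrambled replicates 3 or 4. Among libraries of animal numbers beginning with 18 the value was 0.74 (adjusted p = 0.241, 2 scrambled against 4 aCSF) and among those beginning with 19 it was 0.56 (adjusted p = 0.873, 6 against 4). With the cortical and choroid plexus marker scores as covariates it was 0.59 (adjusted p = 0.420). Without the aCSF library of high choroid plexus markers, replicate 4, it was 0.62 (adjusted p = 0.125), and without scrambled replicate 5, the library with the highest cortical score, 0.62 (adjusted p = 0.10). Kcnh1 had no called slope on the cortical score (0.04 ± 0.05) or on the share of counts in no feature (-0.03 ± 0.11).

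**Figure D2:**
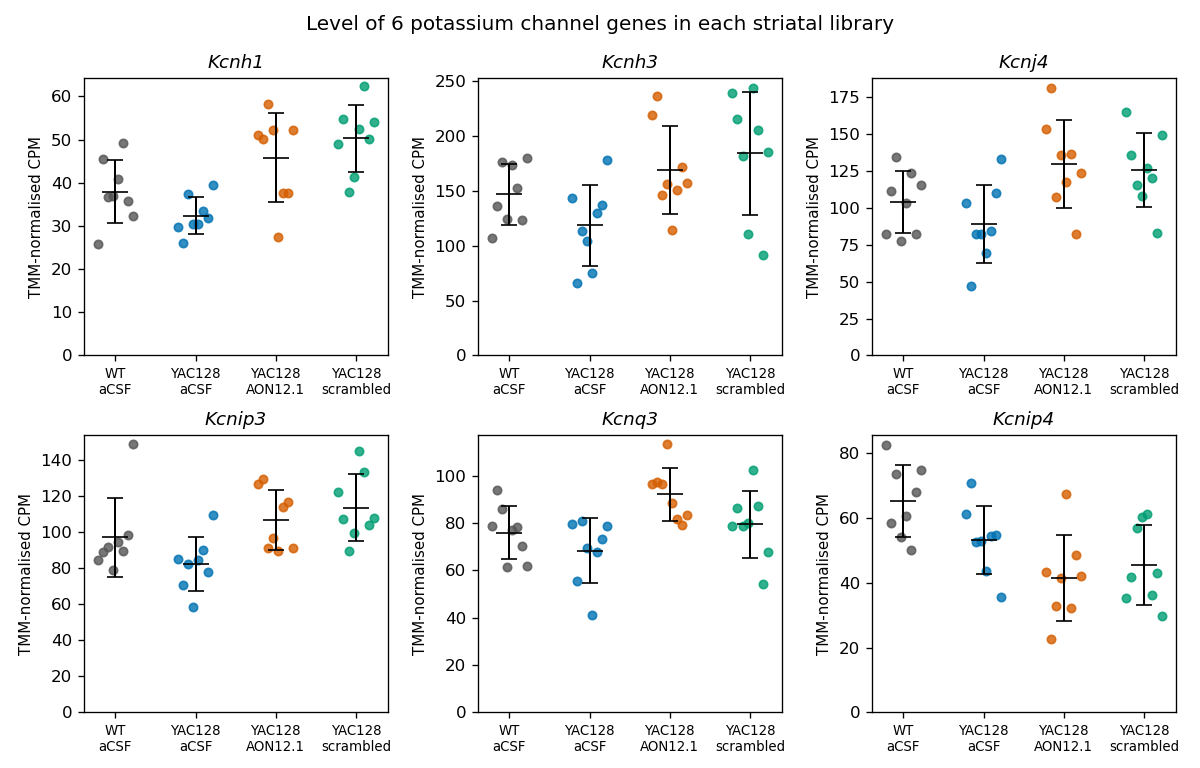
TMM-normalised CPM (y axis) of 6 potassium channel genes in each of 8 libraries per group (x axis), with the mean and SD as bars. The Kcnh1 panel shows scrambled libraries at 37.9 to 62.3 CPM and YAC128 aCSF libraries at 26.0 to 39.4, which overlap between 37.9 and 39.4, and the groups of the other 5 genes overlap too.

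The start of Kcnh1 is shown beside that of Kcnj4, a strong inward rectifier whose values with both oligonucleotides came nearest to those of Kcnh1 among the inward rectifiers. The sequences are RefSeq's, the 250 bases before each transcription start in GRCm38.p6, printed 5′ to 3′ on the gene's strand, which is plus for Kcnh1 (chr1:192190527-192190776) and minus for Kcnj4 (chr15:79505242-79505491). Capitals mark the letters GGGCGG, a GC box core, and CCAAT, each on either strand; TATAAA was searched too and is in neither.
Kcnh1: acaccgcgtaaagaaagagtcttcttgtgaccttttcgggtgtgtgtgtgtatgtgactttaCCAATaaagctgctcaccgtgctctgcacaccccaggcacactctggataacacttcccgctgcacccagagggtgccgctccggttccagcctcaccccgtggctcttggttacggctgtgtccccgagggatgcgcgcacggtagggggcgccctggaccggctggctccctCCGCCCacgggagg
Kcnj4: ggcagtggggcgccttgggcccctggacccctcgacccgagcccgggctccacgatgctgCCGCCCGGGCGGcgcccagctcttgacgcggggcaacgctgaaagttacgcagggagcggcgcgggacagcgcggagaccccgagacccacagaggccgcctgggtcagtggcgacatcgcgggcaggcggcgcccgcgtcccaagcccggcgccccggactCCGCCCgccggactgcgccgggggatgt
Kcnh1 holds CCAAT at 188 bases and CCGCCC at 14 bases before the start, and Kcnj4 holds CCGCCC at 190 and 28 bases and GGGCGG at 184 bases. Of 32851 such windows of all genes, 32.7% hold GGGCGG, 33.8% CCAAT and 12.4% TATAAA. Among 56 windows of the 36 members that matched the table, the shares were 41.1%, 32.1% and 3.57%. These are matches of letters in the annotated window.

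The other members of the ether-à-go-go family are Kcnh2 and Kcnh7, which encode ERG channels that open again as the membrane repolarizes, and Kcnh3 and Kcnh4, which encode ELK channels. Kcnh3 had WT aCSF levels of 107, 145 and 180.2 CPM, YAC128 aCSF levels of 65.9, 122 and 178, AON12.1 levels of 115, 157 and 236, and scrambled levels of 91.7, 195 and 244. Its scrambled group was the highest and the most spread, and it overlapped every other group. The scrambled level over the aCSF level was 1.56-fold, with a 95% interval of 1.21 to 2.01 (log2 0.64 ± 0.18, adjusted p = 0.242), a size like that of Kcnh1 with a larger error. By animal number the scrambled value was 1.11 (18) and 0.38 (19). With AON12.1 the log2 value was 0.51 ± 0.18 (adjusted p = 0.227). Kcnh3 had a called slope on the cortical marker score (0.22 ± 0.06 per SD), where the score is the scaled mean level of the cortical markers in a library. That slope was not called in either of 2 alternative fits, which are given with the score below. Some reads of Kcnh3 may belong to Mcrs1, which overlaps it on the other strand. Kcnh4, with 2 to 25 counts a library, had WT aCSF levels of 2.64, 8.79 and 17.2 CPM, YAC128 aCSF levels of 5.63, 10.3 and 17.05, AON12.1 levels of 9.997, 13.05 and 24.6, and scrambled levels of 6.95, 11.8 and 25.3, and WT libraries had the lowest median. No comparison called Kcnh4, and AON12.1 against WT gave the widest estimate, 1.75-fold, with a 95% interval of 1.13 to 2.698 (log2 0.81 ± 0.31, adjusted p = 0.224). The gene met the count rule mainly through YAC128 libraries. It had 10 or more counts in 1 WT aCSF, 5 YAC128 aCSF, 7 AON12.1 and 6 scrambled libraries. Over the 5 family members, 3 values lay above 0 with AON12.1 over aCSF and 4 with scrambled over aCSF, with medians of 0.45 and 0.43 on the log2 scale.

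The Kv1 genes, Kcna1, Kcna2, Kcna4, Kcna5 and Kcna6, encode low-threshold channels found largely on axons. All 5 had values above 0 in each of AON12.1 against aCSF (median log2 0.27), scrambled against aCSF (0.08) and AON12.1 against scrambled (0.07), and 0 of 5 were called in any of them. Kcna2, a main subunit of axonal Kv1 channels, had WT aCSF levels of 239.8, 278 and 367 CPM, YAC128 aCSF levels of 196, 287 and 391, AON12.1 levels of 276, 300.5 and 392, and scrambled levels of 266, 301 and 354, and its 4 medians lay close together. The A-type subunit Kcna4 had WT aCSF levels of 19.7, 30.6 and 58.3 CPM, YAC128 aCSF levels of 19.6, 31.9 and 60.3, AON12.1 levels of 25.5, 41.6 and 79.8, and scrambled levels of 19.5, 36.6 and 48.98. Its AON12.1 libraries reached highest, at replicate 4, while the 4 groups shared the range from 25.5 to 49.0 CPM. AON12.1 against WT gave 0.56 ± 0.23 (SE, log2) with an adjusted p of 0.258, and within animal numbers beginning with 19 alone that comparison called Kcna4. The highest Kcna4 levels, in AON12.1 replicates 3 and 4 of those numbers, came with the highest no-feature shares of all libraries (33.3% and 33.7%). Kcna4 had a called upward slope on that share, given below. The part of the share in the call was not tested.

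Kv2 channels carry much of the delayed rectifier current of the soma. Kcnb2 had WT aCSF levels of 23.3, 28.99 and 38.3 CPM, YAC128 aCSF levels of 27.8, 35.8 and 41.1, AON12.1 levels of 22.7, 29.96 and 44.4, and scrambled levels of 25.4, 46.1 and 51.2, with the scrambled median above the other 3. It had the smallest p of all members between AON12.1 and scrambled, 0.739-fold, with a 95% interval of 0.603 to 0.905 (log2 -0.44 ± 0.14, unadjusted p = 0.00444, adjusted p = 0.447), which was not called.

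Kv3 channels let neurons fire fast and are known in parvalbumin interneurons. In AON12.1 against scrambled the log2 values of Kcnc1, Kcnc2 and Kcnc4 were -0.20 ± 0.13, -0.15 ± 0.25 and -0.34 ± 0.16, and in scrambled against aCSF they were 0.04 ± 0.13, 0.23 ± 0.24 and 0.17 ± 0.16, none called. Kcnc1 had WT aCSF levels of 132, 217 and 243 CPM, YAC128 aCSF levels of 159, 195 and 253, AON12.1 levels of 102, 181 and 240.1, and scrambled levels of 163, 191 and 279. The lowest of these libraries, AON12.1 replicate 2, also had the fewest counts of Kcnc1, 63. Kcnc2 had WT aCSF levels of 14.7, 24.5 and 48.3 CPM, YAC128 aCSF levels of 14.1, 18.7 and 24.6, AON12.1 levels of 6.47, 19.3 and 36.6, and scrambled levels of 13.9, 19.9 and 37.1, and WT replicate 1 stood above the other libraries of all groups. Its genotype value was -0.46 ± 0.24 (adjusted p = 0.435), and without that WT replicate 1 it was -0.26. Kcnc4 had WT aCSF levels of 52.7, 69.3 and 93.6 CPM, YAC128 aCSF levels of 53.4, 71.6 and 94.4, AON12.1 levels of 44.4, 64.1 and 93.3, and scrambled levels of 52.2, 80.7 and 132, and the adjusted p of its value between AON12.1 and scrambled was 0.683. That value was -0.21 without scrambled replicate 5, and it turned to 0.28 among animal numbers beginning with 18, with 2 libraries on each side. Summed levels of 8 interneuron markers had a WT aCSF median of 1713 CPM, a YAC128 aCSF median of 1304, an AON12.1 median of 1701 and a scrambled median of 1710, and their part in the Kv3 values was not tested.

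Kv4 channels carry the A-type current of soma and dendrites, and Kcnd1, Kcnd2 and Kcnd3 were members, with 0 of 3 called in any comparison. Kcnd2, the Kv4 gene known from striatal projection neurons, had WT aCSF levels of 90.6, 117 and 162 CPM, YAC128 aCSF levels of 77.5, 105 and 161, AON12.1 levels of 85.3, 115 and 192, and scrambled levels of 80.5, 119 and 162. The highest of these is again AON12.1 replicate 4, and the 4 medians differ by less than the spread in any group. An overlapping gene of the same strand, Gm42583, may share its reads. The 6 silent Kv genes (Kcnf1, Kcng1, Kcng2, Kcns1, Kcns2, Kcnv1) encode subunits that form no channel alone and join Kv2 subunits. All 6 had values above 0 in scrambled against aCSF (median log2 0.31) and 5 of 6 in AON12.1 against aCSF (median 0.36), with 0 called. Kcns2 had WT aCSF levels of 17.7, 24.2 and 34.03 CPM, YAC128 aCSF levels of 12.9, 18.1 and 23.5, AON12.1 levels of 18.9, 30.3 and 39.8, and scrambled levels of 16.8, 24.6 and 30.9, and the aCSF libraries of YAC128 mice did not exceed 23.5 CPM, a level that 4 or more libraries of each other group exceeded. Of all members it had the smallest p in AON12.1 against aCSF, 1.57-fold, with a 95% interval of 1.23 to 2.004 (log2 0.65 ± 0.17, adjusted p = 0.0889), and between the genotypes its value was -0.39 ± 0.18 (adjusted p = 0.366). Kcnf1 had WT aCSF levels of 29.7, 44.5 and 53.5 CPM, YAC128 aCSF levels of 23.6, 45.4 and 77.9, AON12.1 levels of 40.5, 55.5 and 86.6, and scrambled levels of 37.9, 58.9 and 81.2, with values of 0.26 ± 0.17 and 0.34 ± 0.17 over aCSF for AON12.1 and scrambled. Kcnf1 had a called slope on the cortical marker score (0.24 ± 0.05 per SD), but not in either of the 2 alternative fits of that slope given below. Kcns1, with 5 to 17 counts a library, had WT aCSF levels of 7.199, 11.4 and 18.3 CPM, YAC128 aCSF levels of 5.096, 7.46 and 12.7, AON12.1 levels of 8.08, 12.6 and 19.4, and scrambled levels of 6.39, 9.86 and 17.5 and a genotype value of -0.44 ± 0.24 (adjusted p = 0.459).

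KCNQ channels carry the M-current, a slow current that muscarinic receptors shut off and that restrains repetitive firing. Kcnq3 and Kcnq5 both had values above 0 with either oligonucleotide over aCSF, and with scrambled these were 0.22 ± 0.12 and 0.22 ± 0.13 on the log2 scale, neither called. Kcnq3 had WT aCSF levels of 61.2, 77.6 and 93.99 CPM, YAC128 aCSF levels of 41.3, 71.2 and 80.7, AON12.1 levels of 79.02, 92.5 and 113, and scrambled levels of 54.2, 79.4 and 102. Its AON12.1 libraries began at 79.0 CPM, near the top of the aCSF group, so that only the upper aCSF libraries overlapped them. That difference was 1.35-fold, with a 95% interval of 1.14 to 1.59 (log2 0.43 ± 0.12, adjusted p = 0.102) with edgeR and was called by DESeq2 (adjusted p = 0.0374). Kcnq5 had WT aCSF levels of 46.9, 55.4 and 83.1 CPM, YAC128 aCSF levels of 30.9, 57.2 and 79.8, AON12.1 levels of 64.2, 75.7 and 92.2, and scrambled levels of 53.7, 68.2 and 70.99; AON12.1 over aCSF was 1.37-fold, with a 95% interval of 1.14 to 1.65 (log2 0.46 ± 0.13, adjusted p = 0.115). Without YAC128 aCSF replicate 8 the log2 value of Kcnq5 was 0.54 and was called (adjusted p = 0.0369). Gm7658 overlaps Kcnq5 on the same strand. Between AON12.1 and scrambled the log2 values were 0.20 for Kcnq3 and 0.24 for Kcnq5, neither called.

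Among channels gated by ions inside the cell, Kcnma1 encodes the large-conductance calcium-activated BK channel and Kcnt1 the sodium-activated Slack channel. Kcnma1 had WT aCSF levels of 92.4, 102 and 165 CPM, YAC128 aCSF levels of 85.7, 122 and 138, AON12.1 levels of 104, 135 and 154, and scrambled levels of 98.9, 131 and 231. Scrambled replicate 5 was the highest, at a level no other library reached, and scrambled against aCSF gave 0.29 ± 0.14 (adjusted p = 0.491). Kcnt1 had WT aCSF levels of 75.3, 94.8 and 142 CPM, YAC128 aCSF levels of 90.1, 127 and 163, AON12.1 levels of 92.2, 121 and 162, and scrambled levels of 97.3, 114 and 179, and the WT median was lowest. It had the smallest p of any member between the genotypes, 1.24-fold, with a 95% interval of 1.02 to 1.51 (log2 0.31 ± 0.14, unadjusted p = 0.0314, adjusted p = 0.354), which was not called. Adding each library's no-feature share to the fit left a value of 0.05. The 3 small-conductance SK genes, Kcnn1, Kcnn2 and Kcnn3, serve the afterhyperpolarization, and 0 of 3 were called. Kcnn2 had WT aCSF levels of 4.86, 13.1 and 22.4 CPM, YAC128 aCSF levels of 8.45, 16.7 and 27.2, AON12.1 levels of 6.32, 15.4 and 20.7, and scrambled levels of 5.56, 15.7 and 27.5, and Kcnn3 had WT aCSF levels of 9.32, 15.98 and 23.7 CPM, YAC128 aCSF levels of 11.95, 16.97 and 27.00, AON12.1 levels of 11.8, 20.6 and 27.4, and scrambled levels of 16.8, 19.4 and 23.9.

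The 6 inward rectifiers were Kcnj3 and Kcnj9, subunits of the G protein-gated Kir3 channels, Kcnj4 and Kcnj12, strong rectifiers of the Kir2 type, Kcnj11, the pore of ATP-sensitive channels, and Kcnj16, a subunit known from glia. Kcnj4 (ENSMUSG00000044216, chromosome 15) had WT aCSF levels of 77.4, 108 and 135 CPM, YAC128 aCSF levels of 47.2, 83.5 and 133, AON12.1 levels of 82.6, 129.8 and 181, and scrambled levels of 83.4, 124 and 165, and the aCSF group of YAC128 mice was lowest although its replicate 8 reached into the upper part of the others. The value was 1.45-fold, with a 95% interval of 1.16 to 1.81 with AON12.1 (log2 0.53 ± 0.16, adjusted p = 0.129) and 1.41-fold, with a 95% interval of 1.13 to 1.77 with scrambled (log2 0.50 ± 0.16, adjusted p = 0.262). Without that replicate 8 the AON12.1 value was 0.63 and was called (adjusted p = 0.0447), and among animal numbers beginning with 18, with 2 AON12.1 and 4 aCSF libraries, it was 1.11 (adjusted p = 0.0300), while among those beginning with 19 it was 0.23. Kcnj3 had WT aCSF levels of 20.02, 31.6 and 43.8 CPM, YAC128 aCSF levels of 21.1, 27.6 and 65.7, AON12.1 levels of 23.2, 30.6 and 44.4, and scrambled levels of 29.2, 40.5 and 74.98, with the scrambled group reaching highest, and AON12.1 against scrambled gave -0.46 ± 0.20 (adjusted p = 0.619); with the marker scores as covariates that value was -0.22. Kcnj3 and Kcnj4 had called slopes on the cortical marker score (0.35 ± 0.06 and 0.18 ± 0.06 per SD), and Kcnj3 also on the no-feature share (-0.50 ± 0.15 per 10 percentage points). In 2 alternative fits of the slope on the score, Kcnj3 stayed called in both and Kcnj4 in neither. Kcnj9 had WT aCSF levels of 40.5, 58.2 and 87.6 CPM, YAC128 aCSF levels of 43.5, 54.5 and 88.2, AON12.1 levels of 47.4, 54.6 and 79.98, and scrambled levels of 43.8, 62.4 and 102, without a called difference. Kcnj16 had WT aCSF levels of 9.86, 14.4 and 20.7 CPM, YAC128 aCSF levels of 6.79, 11.7 and 17.8, AON12.1 levels of 5.91, 9.36 and 14.4, and scrambled levels of 4.21, 11.1 and 15.3, with the WT median highest, and the mean of the YAC128 groups against WT gave -0.43 ± 0.18 (adjusted p = 0.291). Kcnj2, another strong rectifier of projection neurons, fell outside the set with 1 to 15 counts a library. So did Kcnj8, the pore of vascular ATP-sensitive channels, with 1 to 11.

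Two-pore channels carry the leak current. Their members were Kcnk1, Kcnk2, Kcnk3, Kcnk9, Kcnk12 and Kcnk13; Kcnk12 did not pass the filter of the test and had WT aCSF levels of 7.92, 10.5 and 15.1 CPM, YAC128 aCSF levels of 1.42, 7.42 and 14.1, AON12.1 levels of 5.26, 8.73 and 10.98, and scrambled levels of 4.93, 9.79 and 18.1. Of the 5 tested, 0 were called in any group comparison. Kcnk2, a mechanosensitive leak channel, had WT aCSF levels of 133, 197 and 262 CPM, YAC128 aCSF levels of 155, 176 and 195, AON12.1 levels of 143, 211 and 257, and scrambled levels of 155, 188 and 223, with the narrowest range in YAC128 aCSF and values of 0.23 ± 0.12 and 0.10 ± 0.12 over aCSF. The acid-sensitive channel Kcnk3 had WT aCSF levels of 45.1, 69.1 and 83.9 CPM, YAC128 aCSF levels of 47.8, 61.5 and 92.8, AON12.1 levels of 27.5, 52.9 and 78.9, and scrambled levels of 41.6, 69.6 and 88.8, with the lowest median in AON12.1 and a value against scrambled of -0.32 ± 0.17 (adjusted p = 0.7098). Pdcd5-ps overlaps Kcnk2 on the same strand and A430027H14Rik on the other, and Gm9899 overlaps Kcnk3 on the other strand.

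The KChIP genes encode calcium-binding partners of Kv4 channels, and their 4 members did not move as one: over aCSF, Kcnip2 and Kcnip3 had values above 0 and Kcnip1 and Kcnip4 below 0 with both oligonucleotides. Kcnip3, whose protein also acts as a transcriptional repressor, had WT aCSF levels of 79.2, 90.9 and 149 CPM, YAC128 aCSF levels of 58.7, 83.6 and 109.8, AON12.1 levels of 89.5, 105 and 129, and scrambled levels of 89.4, 108 and 145. The scrambled libraries all stood at or above 89.4 CPM, and most aCSF libraries stood below that. Scrambled against aCSF was 1.38-fold, with a 95% interval of 1.16 to 1.64 (log2 0.46 ± 0.12, adjusted p = 0.218) with edgeR, and was called by DESeq2 (adjusted p = 0.0440). With AON12.1 it was 0.37 ± 0.12. Between the genotypes the value was -0.23 ± 0.12, and without WT replicate 8, the highest library of Kcnip3, it was -0.11. The Kcnip3 slope on the cortical marker score was called (0.18 ± 0.04 per SD), but not in either of 2 alternative fits of that slope. Kcnip4 had WT aCSF levels of 50.1, 64.2 and 82.4 CPM, YAC128 aCSF levels of 35.7, 53.7 and 70.8, AON12.1 levels of 22.7, 41.8 and 67.4, and scrambled levels of 29.7, 42.3 and 61.2, with the WT group highest. AON12.1 over WT was 0.648-fold, with a 95% interval of 0.515 to 0.815 (log2 -0.63 ± 0.16, unadjusted p = 0.0004703, adjusted p = 0.0609) and the mean of the YAC128 groups gave -0.48 ± 0.13 (adjusted p = 0.0998). DESeq2 called both, at adjusted p-values of 0.0281 and 0.0422, and edgeR did so without AON12.1 replicate 5, at 0.0106 and 0.0457. Several other annotated genes overlap Kcnip4, so its counts are uncertain. Kcnip1 had WT aCSF levels of 45.1, 59.2 and 106 CPM, YAC128 aCSF levels of 54.4, 71.5 and 103, AON12.1 levels of 33.99, 54.3 and 78.3, and scrambled levels of 47.1, 56.7 and 76.9, and AON12.1 against aCSF gave -0.43 ± 0.16 (adjusted p = 0.265). Kcnip2, a KChIP long known from striatum, had WT aCSF levels of 130.5, 205 and 298 CPM, YAC128 aCSF levels of 112, 187 and 225, AON12.1 levels of 148, 206 and 306, and scrambled levels of 131, 211 and 254, and its values over aCSF were 0.30 ± 0.16 for AON12.1 and 0.16 ± 0.16 for scrambled.

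The other auxiliary members were the Kv beta genes Kcnab1, Kcnab2 and Kcnab3, the BK beta subunit Kcnmb4 and Kcne1l of the KCNE family. Of the 9 auxiliary members in all, 8 had values below 0 between the genotypes, with a median log2 of -0.21, and 0 of 9 were called in any group comparison. Kcnab1 had WT aCSF levels of 62.99, 87.1 and 118 CPM, YAC128 aCSF levels of 52.9, 76.9 and 121, AON12.1 levels of 73.3, 87.8 and 127, and scrambled levels of 31.2, 80.03 and 98.5; scrambled replicate 5 was the lowest library. Kcnab2 had WT aCSF levels of 209, 254 and 342 CPM, YAC128 aCSF levels of 149, 237 and 285, AON12.1 levels of 145, 252 and 347, and scrambled levels of 236, 295 and 362, and scrambled against aCSF gave 0.31 ± 0.13 (adjusted p = 0.445). Kcnab3 had WT aCSF levels of 4.86, 16.3 and 29.6 CPM, YAC128 aCSF levels of 11.3, 13.6 and 18.9, AON12.1 levels of 4.86, 13.1 and 18.9, and scrambled levels of 11.2, 19.7 and 26.3, and AON12.1 against scrambled gave -0.57 ± 0.24 (adjusted p = 0.611). Kcnmb4, the neuronal BK partner, had WT aCSF levels of 67.5, 121 and 163 CPM, YAC128 aCSF levels of 58.6, 90.3 and 135, AON12.1 levels of 77.9, 111 and 128, and scrambled levels of 69.4, 112 and 162, and its genotype value was -0.22 ± 0.16. Kcne1l had WT aCSF levels of 7.41, 12.8 and 20.02 CPM, YAC128 aCSF levels of 3.34, 12.3 and 19.5, AON12.1 levels of 6.32, 9.95 and 18.9, and scrambled levels of 8.34, 10.9 and 13.1. On the other strand, Nphp4 overlaps Kcnab2 and Kcnmb4os2 overlaps Kcnmb4. Both Kcnab2 and Kcnmb4 had called slopes on the cortical marker score (0.19 ± 0.04 and 0.30 ± 0.04 per SD) and on the no-feature share (-0.32 ± 0.09 and -0.47 ± 0.10 per 10 percentage points). With the share as a further term, the slope of Kcnab2 on the score was not called.

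Genes that work with potassium channels were read from 7 further lists. Their values are from the main fit alone, without the refits given for members. Of 26 sodium and calcium channel genes tested, Nalcn, a sodium leak channel, fell with AON12.1, and it was the only one called in a group comparison. Nalcn had WT aCSF levels of 35.1, 38.3 and 49.3 CPM, YAC128 aCSF levels of 35.7, 41.7 and 53.5, AON12.1 levels of 17.6, 24.3 and 34.5, and scrambled levels of 27.6, 42.2 and 50.03, and the AON12.1 libraries did not exceed 34.5 CPM, under every aCSF library of either genotype. Its log2 fold change was -0.82 ± 0.14 against aCSF (adjusted p = 0.00128), -0.71 ± 0.14 against scrambled (adjusted p = 0.0157) and -0.70 ± 0.14 against WT (adjusted p = 0.00783). Of 9 genes of the sodium-potassium pump, which restores the gradient the channels use, Atp1b3 fell in AON12.1 against WT, with a log2 fold change of -0.42 ± 0.08 (adjusted p = 0.00638). Atp1b3 had WT aCSF levels of 107, 117 and 149 CPM, YAC128 aCSF levels of 102, 112 and 127, AON12.1 levels of 74.9, 91.3 and 105, and scrambled levels of 95.7, 103 and 119, and against aCSF the value was -0.34 ± 0.08 (adjusted p = 0.0515). In the 5 remaining lists 0 genes were called in any group comparison: 8 auxiliary subunits with other names, 5 cation-chloride cotransporters, 17 clustering and axonal partners, 12 genes of the G protein control of Kir3 and 5 HCN channel genes.

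Members followed the share of counts in no feature no more often than all tested genes did. That share differed between libraries of each group. In a fit with group and share, 6 of 53 members had a called slope, where 14.6% of all tested genes did, 9.49% upward and 5.08% downward. Per 10 percentage points of share, Kcnt1 rose by 0.43 ± 0.08 (adjusted p = 0.000125) and Kcna4 by 0.55 ± 0.15 (adjusted p = 0.00816) on the log2 scale. The slope was -0.47 ± 0.10 for Kcnmb4 (adjusted p = 0.00131), -0.50 ± 0.15 for Kcnj3, -0.32 ± 0.09 for Kcnab2 and -0.52 ± 0.15 for Kcnn1, which all fell. Kcnn1, like Kcnh7 in the paragraph on cortical markers, is named because its slope was called. All 6 silent Kv genes had slopes below 0, with 0 called. Kcnh1 had no called slope, and the values of Kcnj4, Kcnip3 and Kcnh3 were -0.30 ± 0.11, -0.21 ± 0.09 and -0.28 ± 0.13, none called. The YAC128 aCSF group had the highest mean share. With the share as a covariate, 39 of 53 values lay above 0 in scrambled against aCSF, 35 in AON12.1 against aCSF and 21 between the genotypes.

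**Figure D3:**
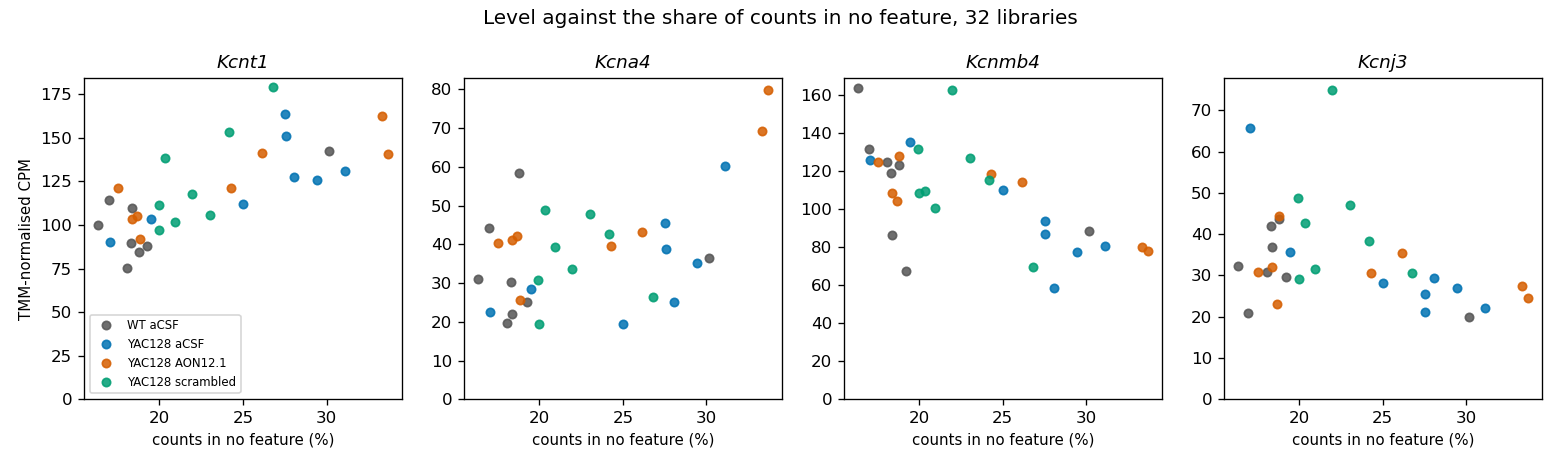
TMM-normalised CPM (y axis) against the percentage of counts in no feature (x axis) in 32 libraries, coloured by group, for 4 potassium channel genes with called slopes. Kcnt1 and Kcna4 run upward with the share, and Kcnmb4 and Kcnj3 run downward, with Kcnj3 highest in scrambled replicate 5 at 75.0 CPM.

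Potassium channel genes were also set against the cortical marker score of each library, in a fit chosen after seeing the data. The score is the mean log2 CPM of the 10 markers, scaled to an SD of 1. Of these markers 7 passed the filter of the test, and they did not follow the score alike. Slopes were 1.37 for Slc17a7, 1.36 for Neurod2, 1.11 for Tbr1 and 0.34 for Nrgn, all called. They were 0.13 for Lamp5, 0.11 for Rorb and -0.08 for Cux2, none called. Among the potassium channel genes, 8 of 53 members had a called slope above 0 and 0 below, where 6.73% of all genes had one, 3.58% above 0 and 3.16% below. Per SD of the score the log2 slopes were 0.44 ± 0.07 for Kcnh7 (adjusted p = 0.000114), 0.35 ± 0.06 for Kcnj3, 0.30 ± 0.04 for Kcnmb4, 0.24 ± 0.05 for Kcnf1, 0.22 ± 0.06 for Kcnh3, 0.19 ± 0.04 for Kcnab2, 0.18 ± 0.06 for Kcnj4 and 0.18 ± 0.04 for Kcnip3. Kcnh7 had WT aCSF levels of 9.899, 21.5 and 28.3 CPM, YAC128 aCSF levels of 11.95, 16.9 and 33.8, AON12.1 levels of 10.98, 19.5 and 26.7, and scrambled levels of 12.5, 19.9 and 66.2, and scrambled replicate 5, the library with the highest score, was far above the rest. Gca overlaps Kcnh7 on the other strand. Without the 2 libraries of highest score, 3 members were called, Kcnab2, Kcnj3 and Kcnmb4. With the share as a further term 6 members were called. Of the 8 members above, only Kcnh7, Kcnj3 and Kcnmb4 were among them. The percentage of all tested genes called is not given for either fit, so these 2 counts stand without it. The slopes of Kcnf1, Kcnh3, Kcnj4 and Kcnip3 stayed above 0 but were not called in either of these 2 fits. The scrambled group had the highest mean score and the YAC128 aCSF group the lowest. With the cortical and choroid plexus scores as covariates, 36 of 53 values lay above 0 in scrambled against aCSF, 31 in AON12.1 against aCSF, 15 between the genotypes and 29 in AON12.1 against scrambled. With those covariates the log2 values over aCSF of Kcnh3 and Kcnj4 with scrambled were 0.40 and 0.33, and that of Kcnip3 was 0.25.

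**Figure D4:**
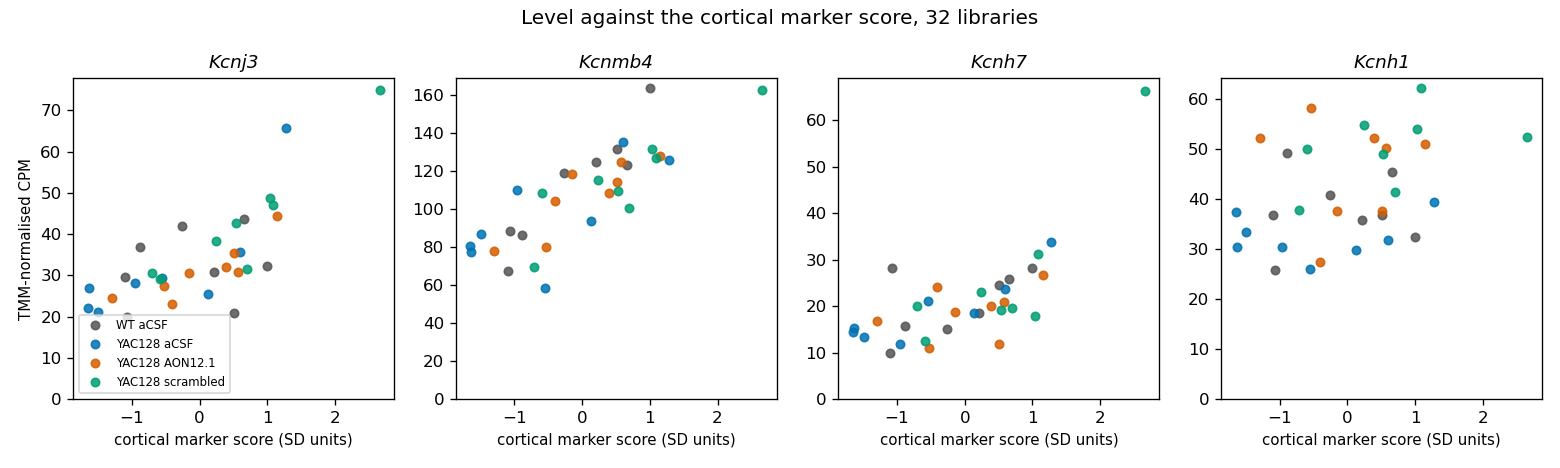
TMM-normalised CPM (y axis) against the cortical marker score in SD units (x axis) in 32 libraries, coloured by group. Kcnj3, Kcnmb4 and Kcnh7 run upward with the score, and Kcnh1, whose slope of 0.04 ± 0.05 was not called, shows no such run.

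Members had 8.34 to 285 mean counts a library, and 16 of 54 had fewer than 20. The median coefficient of variation between libraries of a group was 24.1%. Counting error alone would give 15.1% if every count were an independent molecule, which the sources used here do not state. For Kcnj12, scrambled over aCSF was 0.964-fold, with a 95% interval of 0.559 to 1.66, and for Kcns1 1.16-fold, with a 95% interval of 0.825 to 1.64. A difference as large as that of Kcnh1 lies within both intervals.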

How the data were processed

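RNA counts from the striatum of 32 mice, 8 in each of 4 groups, were analysed. The deposited values are whole-number counts per gene, not normalised by the authors. The submitters' processing notes list HTSeq 0.12.4, STAR 2.7.5a, cutadapt 2.10 and FastQC, and GRCm39 as the build; per the labels' protocols, mcSCRB-seq libraries were made from 100 ng of RNA. The sources used here do not say whether molecular identifiers were collapsed or strand was used, so overlapping genes are uncertain. Symbols were looked up by Ensembl identifier in a GRCm38 annotation.

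Counts were fitted in R 4.3.3 with edgeR 4.0.16 (filterByExpr with minimum count 10 and minimum total 15, 10679 genes, TMM, 1 quasi-likelihood fit of all 32 libraries with 1 coefficient per group) and checked on simulated data. Adjusted p-values are Benjamini-Hochberg values over all tested genes, called under 0.05. Counts in no feature (16.3% to 33.7% of a library) and the other summary lines entered neither library sizes nor tests. DESeq2 1.42.0 and limma 3.58.1 served as alternatives.

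Named genes were those called, the 5 with the smallest p in each of 4 comparisons, the gene with most counts in each subfamily and listed striatal genes. Members and lists were chosen with earlier results of these data known. The slope on the cortical score was chosen after seeing the data. Values of some members are not reported here, and these genes stay in the counts over all members.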

Additional observations from a re-analysis of the deposited data

Results flagged for a closer look

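Each group was checked for a library apart from the other 7, in 36 named members and in the members' summed level. In 9 of 148 such cases, all in named genes, 1 library passed Dixon's critical value, a rule by which chance alone picks about 1 in 20 groups. Kcnc1 in WT replicate 8 was low, at 132 CPM, where the next WT library had 206. In the same group, Kcnip3 was high in replicate 8, at 149 CPM with the next at 98.7, and Kcnc2 was high in replicate 1, at 48.3 with the next at 28.4. With AON12.1, Kcne1l was high in replicate 7, at 18.9 CPM with the next at 11.8, and Kcnf1 in replicate 1, at 86.6 with the next at 60.3. In scrambled libraries, Kcnh4 was high in replicate 3, at 25.3 CPM with the next at 15.0, and replicate 5 was high for both Kcnj3, at 75.0 with the next at 48.7, and Kcns1, at 17.5 with the next at 11.6. Kcnj3 was also high in YAC128 aCSF replicate 8, at 65.7 CPM with the next at 35.7. Scrambled replicate 5 and YAC128 aCSF replicate 8 are the 2 libraries with the highest cortical marker scores, 2.66 and 1.28 in SD units. The Kcnj3 slope on the score stayed called without these 2 libraries. Beyond the slopes and the fit with the scores as covariates given above, the part of the scores in the Kcnj3 values was not tested.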

How the results depend on the processing

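Of 764 recomputed values of 38 named gene results, 701 kept their side of the threshold and, outside the joint test, their direction. A call was lost in 50 and gained in 12. The 1 that reversed was Kcnc4 in AON12.1 against scrambled, at 0.28 among animal numbers beginning with 18. Most of these results were not called in the main fit, so most of the 701 only stayed uncalled. Only a called result could lose a call. Kcnh1 in scrambled against aCSF lost its call in 13 of 16 fits without 1 library and in 10 of 12 other settings. DESeq2 gave Kcnh1 no adjusted p in scrambled against aCSF. In that comparison the count of called members went from 1 to 0 with upper-quartile factors, no filter, limma voom, only the groups compared, the no-feature share, the number series or the marker scores as covariates, libraries of a share up to 25%, or either number series alone, and was 0 to 1 over the fits without 1 library. In AON12.1 against aCSF it was 1 with DESeq2 (Kcnq3), 5 among animal numbers beginning with 18 (Kcnab2, Kcnh3, Kcnip1, Kcnip3, Kcnj4) and 0 to 2 without 1 library: Kcnh1 without AON12.1 replicate 5, Kcnj4 and Kcnq5 without YAC128 aCSF replicate 8. In AON12.1 against WT it was 1 with no filter, DESeq2 or the share as covariate (Kcnip4 each), 1 among animal numbers beginning with 19 (Kcna4), and 0 to 1 without 1 library. For the mean of the YAC128 groups it was 1 with DESeq2 (Kcnip4) and 0 to 1 without 1 library. The joint test gave 2 with DESeq2 (Kcnh1, Kcnip4), 0 with limma voom, the marker scores, a share up to 25% or either number series alone, and 0 to 2 without 1 library. The slope on the cortical score called 3 without the 2 libraries of highest score. The cause of these changes was not tested, beyond the smaller number of libraries in the subsets. The percentages of all tested genes given in Results belong to the main fit. None is given for the alternative fits, so their counts of called members cannot be set against all genes. Genotype, AON12.1 against scrambled and scrambled against WT called 0 members under every alternative run. No paired analysis was possible because the labels number animals individually and give no number shared between groups.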
